A study of Homo sapiens with 10 samples.

Results

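The genes described here are the pocket proteins RB1, RBL1 and RBL2, the MuvB subunits LIN9, LIN37, LIN52, LIN54 and RBBP4, and the kinase DYRK1A. The rule takes them by symbol and uses no measured value, although earlier results of these data were known when the set was proposed, and all 9 are among the 26040 genes of the deposited table. All 9 also passed the filter on low values, which kept the 14955 genes that reached 10 in 3 libraries or more. The question was whether the messages of these repressor subunits themselves move when the genes they repress fall.

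Messenger RNA was sequenced from U2OS, an osteosarcoma line of human origin with functional p53. Every culture carried a lentiviral shRNA under puromycin selection at 1 µg/ml. The groups were 3 lines with shRNAs against ARVCF given 10 µM nutlin-3a for 24 h, the same 3 lines untreated, 1 line with a negative control shRNA given nutlin-3a in 3 libraries, and that control line untreated in 1 library. Nutlin-3a blocks the binding of MDM2 to p53 and so stabilises p53, and ARVCF is a catenin that binds cadherins. Each shARVCF replicate is a line with its own shRNA, and the labels speak of single clones, whereas the control libraries all come from 1 line, so their spread may be technical.

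In quiescent and p53-arrested cells the MuvB core joins a pocket protein, RBL1 (p107) or RBL2 (p130), and an E2F-DP dimer to form DREAM, a complex that silences cell cycle genes. In cycling cells the same core leaves the pocket protein and binds B-MYB and FOXM1, and then activates mitotic genes. RB1 is not a DREAM subunit and acts with activating E2F factors instead. Within MuvB, LIN54 contacts the CHR element of promoters, LIN52 bridges to the pocket protein once DYRK1A has phosphorylated it, LIN37 is needed for repression, LIN9 is a scaffold that is also needed for binding of B-MYB, and RBBP4 is a histone-binding protein shared with several chromatin complexes.

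The values are the authors' fragments per gene, estimated and scaled across libraries, and are called scaled fragments here. Their totals were 17821751 to 19903778 per library, and about 15073578 to 21096205 fragments before scaling, as estimated from the lowest step in each library. Over libraries and members, estimated fragments before scaling ran from 7 (LIN9 in a nutlin-treated control library) to 5315 (RBBP4). ARVCF had 1284, 1188 and 1232 scaled fragments in nutlin-treated shARVCF lines, against 2928, 2571 and 2376 in nutlin-treated control libraries, and 291.8, 343.2 and 338 in untreated shARVCF lines against 617.7 in the untreated control. ARVCF was thus lower in every shARVCF library than in any control library of the same treatment. All 20 p53 target genes on a check list rose with nutlin-3a in the shARVCF lines and in the control line. Of 9 osteoblast markers, 5 reached 10 in every library (RUNX2, COL1A1, ALPL, SPARC and SPP1), whereas SP7, IBSP and BGLAP stayed under 10 in all. COL1A2 was also low, at a mean of 13.49 in nutlin-treated control libraries and 5.08 to 7.358 in the other groups. No blood cell marker of 7 reached 10 in every library, and 5 were under 10 in all.

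The nutlin-treated control libraries stood apart in a way that touches most results below. In that line the log2 fold change of a gene after nutlin-3a followed the length of its transcript. The median was 0.55 for the genes with the shortest transcripts (112 to 2129 nt), 0.13 for those of 2130 to 3349 nt, -0.32 for those of 3350 to 5176 nt and -0.79 for the longest (5177 to 109224 nt). In the shARVCF lines the same medians, shortest to longest, were 0.02, 0.00, -0.03 and -0.01. The cause of this trend was not tested, so the tests of the 9 genes that involve these libraries are given as deposited and again with each library's trend on transcript length and GC content removed. Where the text below says that the length trend was removed, length and GC were removed together. Their separate parts were not tested. Ratios, levels per kilobase, nearest profiles and most values of other genes are given as deposited and carry the trend in these libraries. Removing it moved the median of all genes for the drug effect in the control line to 0.10, against -0.10 as deposited. The 2 later control libraries carry later library numbers, which were taken as a second library series. Markers moved with the groups too. The summed epithelial markers, of which 4 of 8 reached 10 in every library (EPCAM, KRT8, KRT18 and CLDN4), were 26850 to 27785 in nutlin-treated control libraries, against 11748 in the untreated control. In the shARVCF lines that sum was 9026 to 14375 with nutlin-3a and 9289 to 13166 without. Most of it was KRT18 and KRT8, at means of 14632 and 12388 in nutlin-treated control libraries, against 4809 and 6489 in the untreated control. EPCAM was lower there with nutlin-3a, at a mean of 61.74 against 142.5. Of 6 tested epithelial markers, 2 were called higher and 1 lower in the control line as deposited. Summed mesenchymal markers, 5 of 6 at 10 or more in every library, were 237882 to 317371 in nutlin-treated and 133131 to 199616 in untreated shARVCF lines, and 110181 to 123332 in the nutlin-treated and 147882 in the untreated control. Most of the difference in the shARVCF lines was FN1, at means of 224318 with nutlin-3a and 111882 without. Of 5 tested mesenchymal markers in these lines, 2 were called higher (FN1 and SNAI2) and 2 lower (VIM and ZEB1). The part of these markers in the results was not tested.

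In the shARVCF lines, RBL1 fell with nutlin-3a while RBL2 and RB1 were not called as deposited. RBL1 had 109.6, 159.1 and 101.7 scaled fragments with nutlin-3a, against 1079, 967.7 and 805.2 untreated. Every treated library lay far below every untreated one, a 7.74-fold lower level (log2 fold change -2.95, SE 0.21, limma adjusted p = 2.61e-07). RBL2 had 1895, 1845 and 1850 scaled fragments with nutlin-3a and 1941, 1722 and 1435 untreated, and the groups overlapped. Its log2 fold change was 0.14 (95% interval -0.09 to 0.38, limma adjusted p = 0.31). With the length and GC trend removed RBL2 was called higher, by 0.27 (limma adjusted p = 0.0374). RB1, the pocket protein that restrains entry into S phase through the activating E2Fs, had 1194, 1109 and 1154 scaled fragments with nutlin-3a and 1548, 1424 and 1237 untreated. All treated values lay below all untreated ones, but the log2 fold change of -0.28 (SE 0.11) missed the threshold (limma adjusted p = 0.0581). With the line as a block it passed (limma adjusted p = 0.0377), as it did without untreated shARVCF 3 (limma adjusted p = 0.025) or nutlin-treated control 1 (limma adjusted p = 0.0384). With the length and GC trend removed the change was -0.03 (limma adjusted p = 0.832). In whole cultures, fewer cells of a kind and less RNA per cell cannot be told apart.

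Among the MuvB subunits, 4 of 5 fell in the shARVCF lines and by very different amounts. LIN9 had 48.39, 49.95 and 49.4 scaled fragments with nutlin-3a, against 429.8, 491.2 and 403.6 untreated. It was 8.78-fold lower (log2 fold change -3.13, SE 0.23, limma adjusted p = 3.59e-07), and the 3 treated lines lay within 2 scaled fragments of each other. LIN54, the DNA-binding subunit, had 265.7, 325.6 and 347.7 with nutlin-3a against 1039, 1033 and 848.8 untreated, a 3.11-fold lower level (log2 fold change -1.64, SE 0.16, limma adjusted p = 3.78e-06). LIN52 had 349.4, 303.4 and 314.1 with nutlin-3a against 690, 617.8 and 498.7 untreated, 1.85-fold lower (log2 fold change -0.89, SE 0.15, limma adjusted p = 0.000409). RBBP4 had 2642, 2812 and 2311 with nutlin-3a against 4749, 4131 and 3679 untreated, 1.61-fold lower (log2 fold change -0.69, SE 0.12, limma adjusted p = 0.000518). None of these 4 genes had overlapping groups, but the share of all genes without overlap was not counted. LIN37 was the exception in MuvB, with 162.9, 199.9 and 202.4 scaled fragments with nutlin-3a and 172.1, 159.4 and 147.5 untreated. Its groups overlapped and its log2 fold change was 0.23 (95% interval -0.08 to 0.54, limma adjusted p = 0.215). DYRK1A had 542.3, 470.9 and 412.3 with nutlin-3a and 622.8, 602 and 531.9 untreated, with overlapping groups. Its log2 fold change of -0.31 missed the threshold (limma adjusted p = 0.0758) and passed it with the line as a block (limma adjusted p = 0.035) or without nutlin-treated shARVCF 1 (limma adjusted p = 0.0343). Removal of the length and GC trend gave a lower call, at -0.42 (limma adjusted p = 0.0158).

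Counted together, 5 of the 9 genes fell in the shARVCF lines and none rose, with a median log2 fold change of -0.69, beside -0.00 over all genes tested. Of all genes, 42.8% were called in this comparison, 21% higher and 21.7% lower. With the line as a block 7 of the 9 were called, all lower, with RB1 and DYRK1A added. The share of all genes called in that fit was not counted. With the length and GC trend removed 7 of the 9 were called, RBL2 higher and 6 lower, where 45.1% of all genes were called, 24.4% higher and 20.7% lower. Line by line, RBL1 and LIN9 fell in each of the 3 lines, with log2 differences of -3.29, -2.60 and -2.97 for RBL1 and of -3.12, -3.27 and -3 for LIN9. RBL2 differed by -0.04, 0.10 and 0.37 and LIN37 by -0.08, 0.33 and 0.45 in lines 1, 2 and 3.

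**Figure D1:**
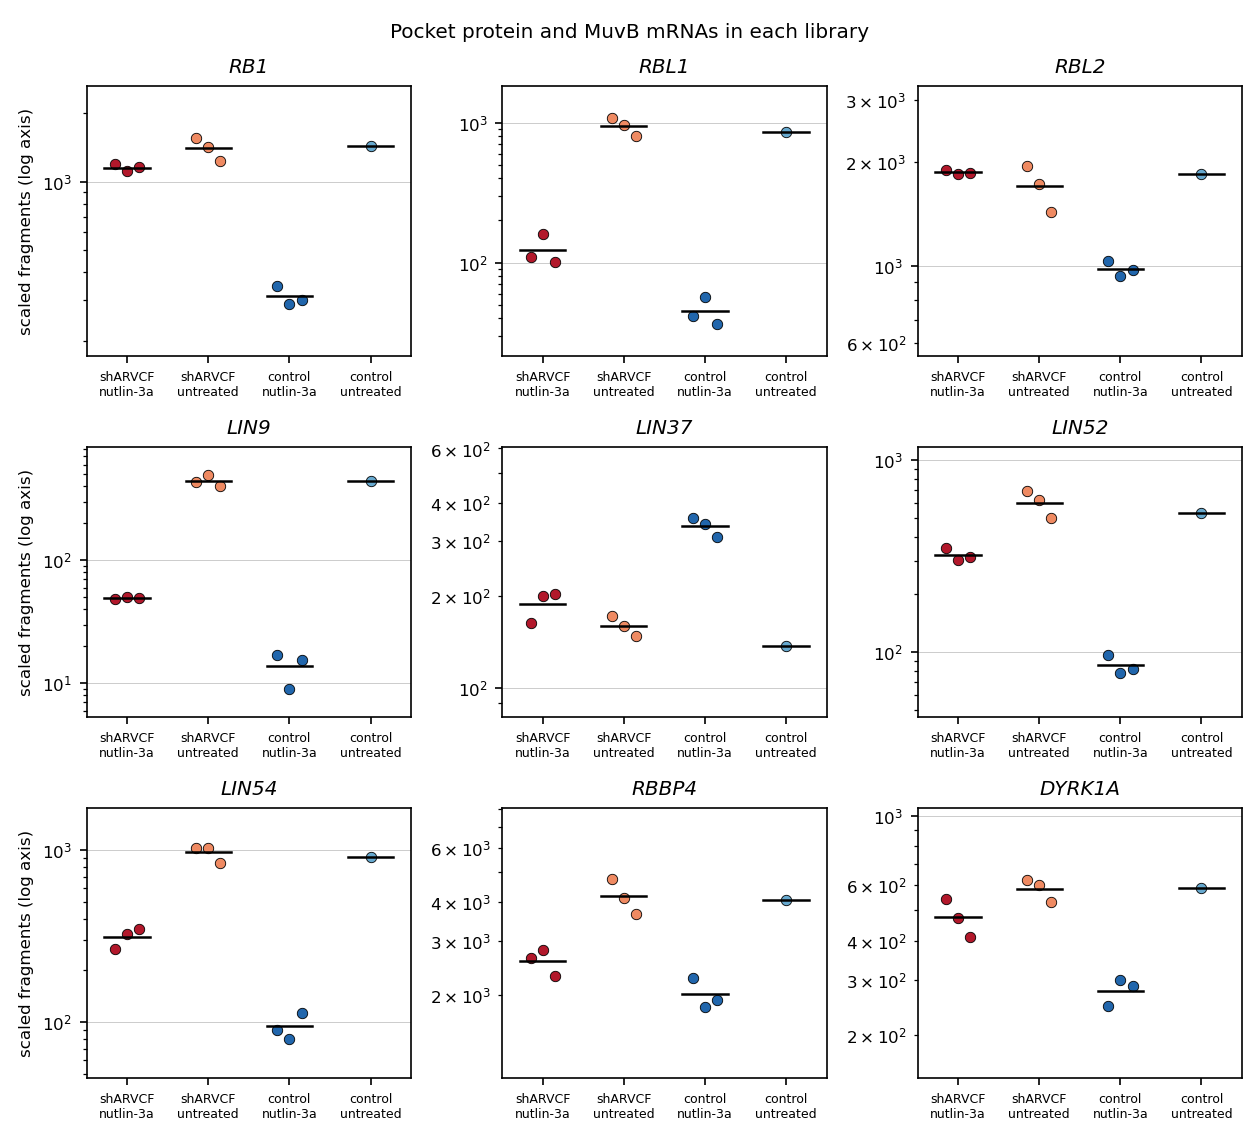
Scaled fragments (log axis) of the 9 genes in each of the 10 libraries, by group, with points for libraries and short lines for group means. RBL1 and LIN9 lie far lower with nutlin-3a in both kinds of line, LIN37 lies highest in the nutlin-treated control libraries (310.2 to 356.8), and RBL2 overlaps between treatments in the shARVCF lines.

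Promoter sequences are shown for 6 genes to set the letters beside the ones that fell and the ones that did not. Windows from 250 bases before to 50 bases after an annotated start (RefSeq, GRCh38.p14) were searched on both strands for 4 E2F words and 2 CHR words. The E2F words were TTCCCGC and TTGGCGC, known from many E2F promoters, the variant TTCGCGC and the further variant TTGCCGC. The CHR words were the canonical TTTGAA and its known variant TTCGAA. Among 35116 windows of 27305 genes, 13% held an E2F word and 16.4% a CHR word. Per gene, over all its windows, the shares were 15.3% and 19.5%. The only window of RB1 in the table lies at a start inside the gene and was left out. Of the other 8 genes, 5 held an E2F word (RBL1, LIN9, LIN52, RBBP4 and DYRK1A) and 5 a CHR word (RBL2, LIN9, LIN37, LIN54 and DYRK1A). DYRK1A has 6 windows and LIN9 has 3, which gives them more letters to match. For each gene shown, the window with the most words was printed, and ties went to the window nearest the main start. The capitals mark the words.

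RBL1, chr20:37095948-37096247, minus strand, with an E2F pair just upstream of the start, and LIN9, chr1:226309115-226309414, minus strand, at an alternative start with a pair of CHR words, are shown for the genes that fell furthest:
RBL1: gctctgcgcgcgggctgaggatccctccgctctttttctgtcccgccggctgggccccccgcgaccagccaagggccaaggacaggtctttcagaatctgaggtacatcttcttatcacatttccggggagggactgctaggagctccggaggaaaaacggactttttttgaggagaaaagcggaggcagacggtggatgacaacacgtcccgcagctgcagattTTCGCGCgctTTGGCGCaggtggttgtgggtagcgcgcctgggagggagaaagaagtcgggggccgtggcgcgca
LIN9: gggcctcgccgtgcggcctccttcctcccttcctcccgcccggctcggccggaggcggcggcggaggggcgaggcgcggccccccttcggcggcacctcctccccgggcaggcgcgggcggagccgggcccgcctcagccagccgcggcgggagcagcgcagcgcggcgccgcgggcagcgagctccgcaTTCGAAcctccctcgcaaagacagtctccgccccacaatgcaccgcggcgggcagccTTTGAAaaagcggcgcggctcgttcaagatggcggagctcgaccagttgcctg
LIN52, chr14:74084706-74085005, plus strand, and LIN54, chr4:83010785-83011084, minus strand, are shown next, each with 1 word in the window:
LIN52: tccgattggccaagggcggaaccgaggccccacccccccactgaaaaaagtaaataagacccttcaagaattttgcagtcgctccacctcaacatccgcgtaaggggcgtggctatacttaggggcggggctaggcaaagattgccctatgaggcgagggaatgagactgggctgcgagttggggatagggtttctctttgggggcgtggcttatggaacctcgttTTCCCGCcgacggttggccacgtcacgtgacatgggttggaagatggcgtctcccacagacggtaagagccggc
LIN54: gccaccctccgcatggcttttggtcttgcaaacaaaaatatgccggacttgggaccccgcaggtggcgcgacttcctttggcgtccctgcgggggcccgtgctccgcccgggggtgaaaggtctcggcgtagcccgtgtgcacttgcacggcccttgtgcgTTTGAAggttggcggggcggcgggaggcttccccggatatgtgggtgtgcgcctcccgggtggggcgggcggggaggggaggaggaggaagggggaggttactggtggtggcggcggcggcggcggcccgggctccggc
RBL2, chr16:53434221-53434520, plus strand, and LIN37, chr19:35748564-35748863, plus strand, at an alternative start, were not called lower in the shARVCF lines and hold a CHR word each:
RBL2: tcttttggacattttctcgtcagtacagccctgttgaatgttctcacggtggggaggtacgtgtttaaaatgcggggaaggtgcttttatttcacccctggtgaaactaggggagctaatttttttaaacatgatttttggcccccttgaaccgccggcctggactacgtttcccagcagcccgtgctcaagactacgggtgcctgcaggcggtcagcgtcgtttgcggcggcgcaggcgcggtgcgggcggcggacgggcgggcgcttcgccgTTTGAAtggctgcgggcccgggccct
LIN37: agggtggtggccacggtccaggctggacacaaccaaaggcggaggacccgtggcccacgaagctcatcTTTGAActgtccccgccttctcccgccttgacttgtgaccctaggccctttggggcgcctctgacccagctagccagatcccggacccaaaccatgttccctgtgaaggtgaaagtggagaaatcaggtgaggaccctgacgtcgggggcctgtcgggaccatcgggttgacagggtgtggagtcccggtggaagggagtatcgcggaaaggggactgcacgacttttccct

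Counted from the start, with negative positions before it, the last bases of the words are at -19 and -9 in RBL1, -55 and 3 in LIN9, -18 in LIN52, -84 in LIN54, 30 in RBL2 and -177 in LIN37. The windows of LIN9 and LIN37 nearest their main starts held no word. That of RBBP4, which fell least among the genes called in the shARVCF lines, held 2 overlapping E2F words. Over all windows LIN9 held 1 E2F word and 2 CHR words, and RBL1 and RBBP4 held 2 E2F words each. DYRK1A, not called in the shARVCF lines as deposited, held 1 E2F word and 5 CHR words. Whether the number of words goes with the size of the fall was not tested, and the number depends on the windows counted. Words of either kind were present both in genes that fell and in genes that did not, and these matches are letters, not tested sites.

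In the control line RBL1, LIN9, LIN54, LIN52 and RB1 fell with nutlin-3a, with the length trend and without it. RBL1 had 41.11, 56.66 and 36.26 scaled fragments with nutlin-3a against 857 in the untreated library (log2 fold change -4.26, SE 0.30, limma adjusted p = 2.46e-07). LIN9 had 17.05, 9.015 and 15.54 against 440.4, which was 30.6-fold lower (log2 fold change -4.94, SE 0.33, limma adjusted p = 1.64e-07). With the length trend removed their values were -3.25 for RBL1 and -4.30 for LIN9. LIN54 had 90.25, 79.85 and 112.7 against 911 (log2 fold change -3.27), and -2.20 with the trend removed. LIN52 had 96.61, 77.84 and 81.58 against 531.8 (log2 fold change -2.63), and -2.29 with the trend removed. Every treated library of these 4 genes lay below the untreated one, and the same held for RB1, RBL2, RBBP4 and DYRK1A. How common this was over all genes was not counted. RB1 had 349, 289.8 and 300.4 against 1430, a log2 fold change of -2.19 (limma adjusted p = 2.63e-07) that became -1.19 with the trend removed (limma adjusted p = 1.38e-05).

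The other 4 genes lost their call in the control line when the length trend was removed. RBL2 had 1036, 935.5 and 976.7 scaled fragments with nutlin-3a against 1845 untreated (log2 fold change -0.91, limma adjusted p = 0.000262), and -0.11 after removal (limma adjusted p = 0.521). RBBP4 had 2284, 1834 and 1938 against 4072 (log2 fold change -1.02, limma adjusted p = 0.000253), and 0.06 after removal (limma adjusted p = 0.748). DYRK1A, with the longest transcript of the 9 at 17562 nt, had 247.7, 298.8 and 286.2 against 588.5 (log2 fold change -1.09, limma adjusted p = 0.000287), and 0.03 after removal (limma adjusted p = 0.89). LIN37, with the shortest transcript at 1150 nt, was the only one higher, with 356.8, 341.3 and 310.2 against 137 (log2 fold change 1.29, limma adjusted p = 0.000168), and 0.44 after removal (limma adjusted p = 0.075). As deposited all 9 genes were called, 8 lower and 1 higher, where 57.1% of all genes were called, 25.1% higher and 32% lower. After removal 5 were called, all lower, where 49.8% of genes were called, 28.7% higher and 21.1% lower. The untreated control is a single library, assumed in these tests to vary like the other groups.

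**Figure D2:**
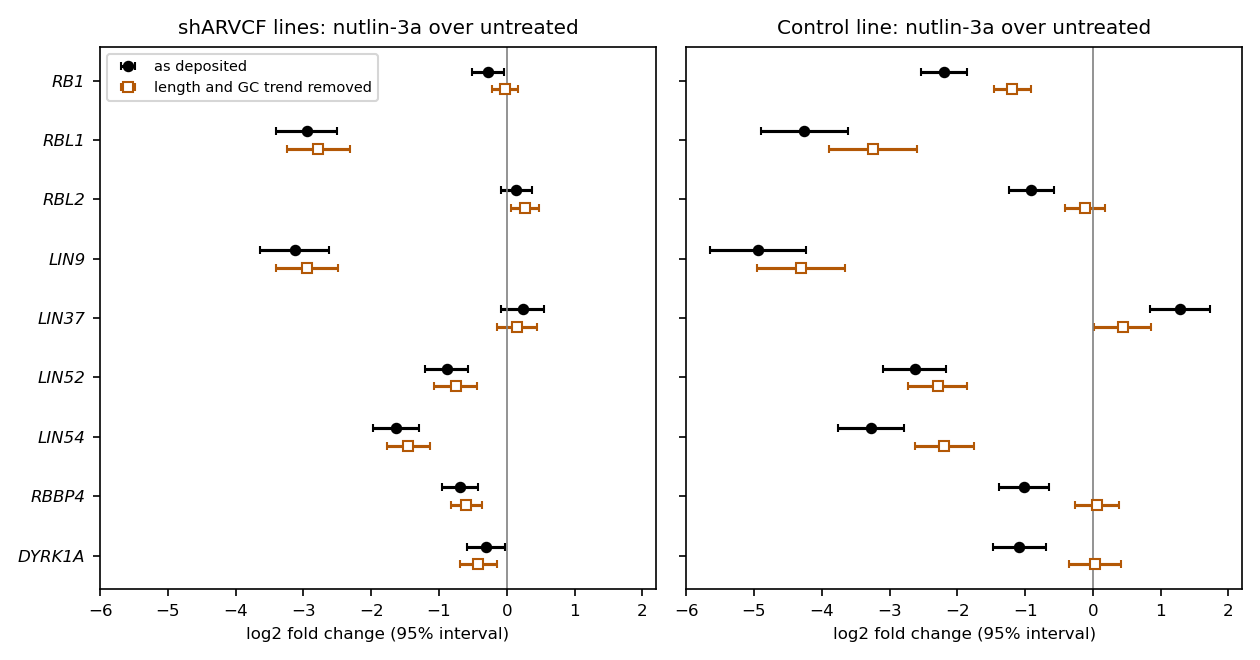
Log2 fold change of the 9 genes with nutlin-3a over untreated, with 95% intervals, in the shARVCF lines and in the control line, as deposited (filled circles) and with the length and GC trend removed (open squares). In the shARVCF lines the pairs of symbols lie close together, whereas in the control line RBL2, RBBP4 and DYRK1A move to near 0.

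The genes lie apart in the genome (hg38, GENCODE v29) except that LIN9 and RBBP4 share chromosome 1. RB1 lies at chr13:48303726-48599436 on the plus strand with 27 exons, RBL1 at chr20:36996349-37095995 on the minus strand with 22, and RBL2 at chr16:53433977-53491649 on the plus strand with 22. LIN9 lies at chr1:226231149-226309869 (minus, 15 exons), LIN37 at chr19:35748361-35754519 (plus, 9 exons) and LIN52 at chr14:74084796-74201235 (plus, 6 exons). LIN54 lies at chr4:82909973-83012926 (minus, 13 exons), RBBP4 at chr1:32651142-32686211 (plus, 12 exons) and DYRK1A at chr21:37365573-37526358 (plus, 11 exons). Several share exonic bases with a neighbour, and the sources used here do not say whether fragments were counted by strand. RBBP4 shares 1706 bases with SYNC on the other strand, and SYNC rose to 724.4, 830.6 and 778.5 scaled fragments with nutlin-3a in the shARVCF lines, against 235.8, 284.1 and 231.4 untreated, while RBBP4 fell. RBBP4 also has 6 named pseudogenes, so its level is uncertain. RBL2 shares 610 bases with AKTIP, which had 370, 400.3 and 463.8 with nutlin-3a and 453.8, 405.6 and 442.4 untreated in the shARVCF lines. LIN37 shares 752 bases with a coding gene annotated on its own strand (AD000671.1), and its value may hold fragments of that gene.

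The make-up of the pocket protein messages differed between treated and untreated libraries. The ratio of RBL2 to RBL1 within a library was 17.3, 11.6 and 18.2 in nutlin-treated shARVCF lines, against 1.8, 1.78 and 1.78 untreated. It was 25.2, 16.5 and 26.9 in nutlin-treated control libraries, against 2.15 in the untreated control. The treated and untreated ratios did not overlap in either kind of line, and both transcripts have a similar length (4906 nt for RBL2 and 5684 nt for RBL1). Per kilobase of transcript, RBL1 made up 2.94%, 4.41% and 2.81% of the summed pocket protein signal in nutlin-treated shARVCF lines, against 20.9%, 20.8% and 20.5% untreated. RBL2 made up 59%, 59.2% and 59.3% with nutlin-3a against 43.6%, 42.9% and 42.2% untreated. The share of RB1 overlapped, at 38.1%, 36.4% and 37.9% with nutlin-3a and 35.5%, 36.3% and 37.3% untreated. In the control line RB1 had a lower share with nutlin-3a, 25%, 23.2% and 23.4%, against 36.2% untreated. Within MuvB the ratio of LIN37 to LIN9, not adjusted for length, was 3.37, 4 and 4.1 in nutlin-treated shARVCF lines against 0.401, 0.325 and 0.366 untreated.

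**Figure D3:**
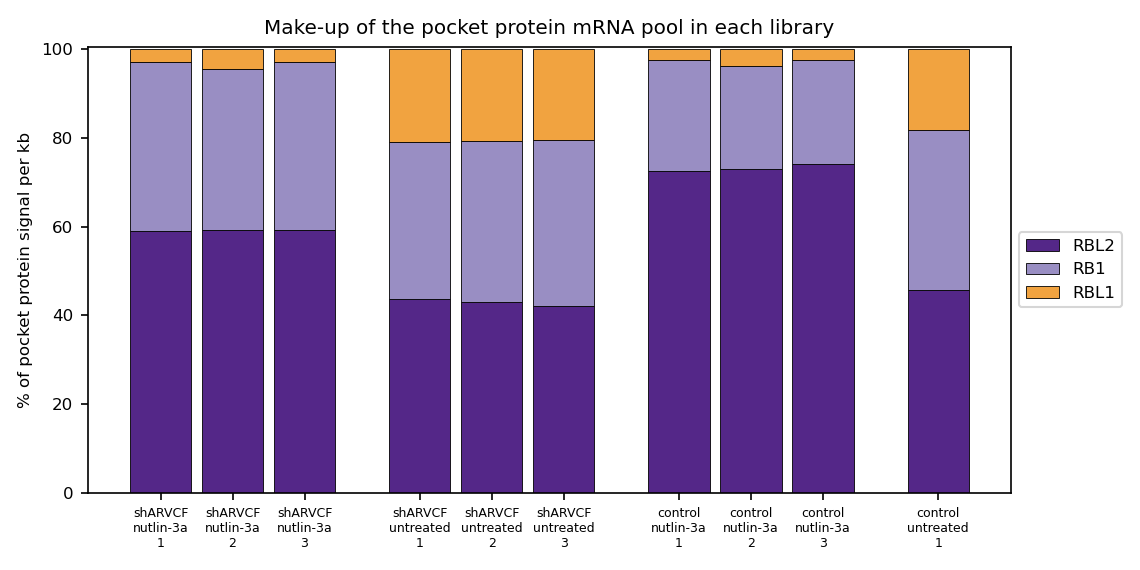
Share of the summed pocket protein signal per kilobase held by RB1, RBL1 and RBL2 in each library (bars add to 100%). RBL1 holds 2.38% to 4.41% in every nutlin-treated library and 18.3% to 20.9% in every untreated one.

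Levels per kilobase of transcript give the order of the genes, which depends on the length used. That length is of the longest annotated transcript, 17562 nt for DYRK1A. In untreated shARVCF lines DYRK1A averaged 585.6 scaled fragments before division by length, above LIN9 (441.5) and LIN37 (159.7). In nutlin-treated shARVCF lines the order was RBL2 (380 scaled fragments per kb), RBBP4 (326), RB1 (240), LIN37 (164), LIN52 (116), LIN54 (51.1), DYRK1A (27.1), RBL1 (21.7) and LIN9 (13.8), and DYRK1A and RBL1 were the only neighbours whose ranges overlapped. In the same lines untreated, RBBP4 led with 527 ± 67.7 per kb, ahead of RBL2 with 346 ± 51.8 and RB1 with 293 ± 32.6 (SD, n = 3), and RBL2 and RB1 overlapped. LIN52 (217), RBL1 (167), LIN54 (159), LIN37 (139) and LIN9 (124) then followed with each overlapping its neighbour, and DYRK1A was lowest at 33.3. The 5 genes of that middle group thus lay within a narrow band before the drug and were spread out after it. In nutlin-treated control libraries LIN37 (292) and RBBP4 (254) led with overlapping ranges as deposited, in libraries whose values follow transcript length, and LIN9 was lowest at 3.89, against 119 for LIN37, 513 for RBBP4 and 123 for LIN9 in the untreated control.

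The cell cycle genes that DREAM represses were set beside its subunits. Of 36 G1/S targets, 35 fell in the shARVCF lines and none rose, with a median log2 fold change of -3.24. In the control line 35 also fell, with a median of -3.46. PCNA, the sliding clamp of replication and itself a p53 target, was the gene not called, at -0.16 in the shARVCF lines and 0.28 in the control line. Among the others, the replication licensing gene MCM5 changed by -3.22 in the shARVCF lines and -3.01 in the control line, and GINS2, a helicase subunit, by -4.90 and -4.50. All 36 G2/M targets fell in both, with medians of -4.84 in the shARVCF lines and -5.69 in the control line. Of all genes, 21.7% were called lower in the shARVCF lines and 32% in the control line. Both target lists were chosen with earlier results of these data known. CENPF, a kinetochore gene, changed by -4.79 and -6.65, and CCNA2, cyclin A, by -4.79 and -5.22. RBL1 and LIN9, at -2.95 and -3.13 in the shARVCF lines, lay close to the median of the G1/S targets, and the other 7 genes lay nearer 0.

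The partners that complete the complex were mixed. E2F4, the main repressor E2F of DREAM, fell by 0.43 on the log2 scale in the shARVCF lines (limma adjusted p = 0.00743) and was -0.09 in the control line (limma adjusted p = 0.647). Removal of the length trend gave a lower call for E2F4 there too, at -0.59 (limma adjusted p = 0.00724). E2F5 fell in both, at -1.16 in the shARVCF lines and -1.52 in the control line. TFDP1, the dimer partner of E2F factors, also fell in both, at -1.01 and -1.69, while TFDP2 was not called in either as deposited (0.04 and 0.13). In the control line with the length trend removed, TFDP2 was called higher, at 1.06 (limma adjusted p = 0.000191). The partners of MuvB in its activating form fell far further. The log2 fold change of MYBL2 (B-MYB) was -5.12 in the shARVCF lines and -5.25 in the control line, that of FOXM1 was -4.33 and -5.41, and that of MYBL1, a paralogue of MYBL2, was -1.99 and -3.60 (-2.55 with the length trend removed), all called. Of 6 other E2F genes, 3 fell in the shARVCF lines, 1 rose and 2 were not called. The activators E2F1 (-5.20) and E2F2 (-5.81) and the atypical repressor E2F8 (-3.70) were those that fell. E2F7, an atypical repressor that p53 induces, was the one that rose, by 0.86 in the shARVCF lines (limma adjusted p = 9.15e-05). In the control line it was -0.76 as deposited (limma adjusted p = 0.00203) and 0.13 with the length trend removed.

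**Figure D4:**
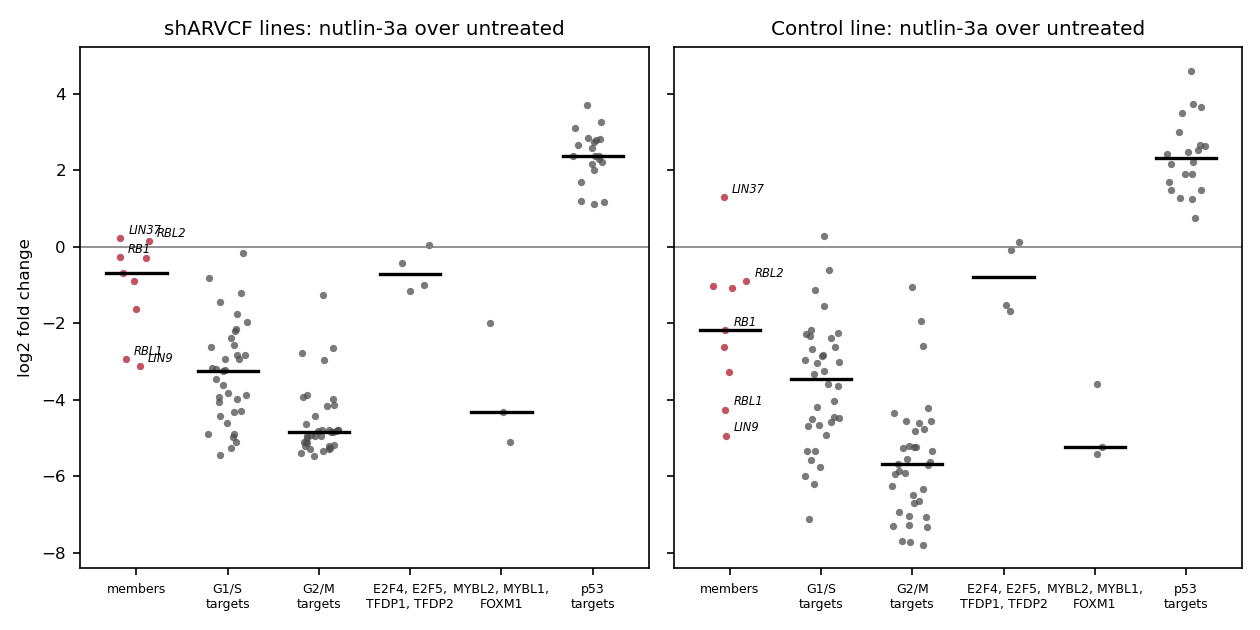
Log2 fold change with nutlin-3a of each gene in the groups named on the x axis, in the shARVCF lines and in the control line. In the shARVCF lines the G2/M targets have the lowest median (-4.84), followed by MYBL2, MYBL1 and FOXM1 (-4.33) and the G1/S targets (-3.24). The 9 subunits and pocket proteins spread from -3.13 to 0.23 there.

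Genes that control pocket protein phosphorylation changed in both directions. Of 10 cyclins and kinases that phosphorylate pocket proteins, 2 rose and 6 fell in the shARVCF lines. Of all genes, 21% were called higher there and 21.7% lower. This list shares genes with the target lists above, CCNA2 among them. CCND2 (cyclin D2) rose by 1.44 and CCND1 by 0.87, whereas CDK1 (-4.85), CDK2 (-2.15) and CCNA2 fell. The same numbers, 2 higher and 6 lower, were called in the control line as deposited, and 2 higher and 5 lower with the length trend removed. In that line 25.1% of all genes were called higher and 32% lower, and 28.7% and 21.1% with the trend removed. Among 6 measured CDK inhibitors of 7 listed, CDKN1A (p21), the p53 target that inhibits these kinases, rose to 28170, 27228 and 32933 scaled fragments with nutlin-3a in the shARVCF lines, against 2636, 3283 and 4528 untreated. The other inhibitors called were lower, with CDKN1B (p27) at -1.35 and CDKN2C (p18) at -3.74. CDKN2A was listed at 0 in every group.

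Under nutlin-3a, 8 of the 9 genes were higher in the shARVCF lines than in the control line as deposited and LIN37 was lower, where 58.4% of all genes were called, 32.3% higher and 26.1% lower. Here n counts 3 shARVCF lines but 3 libraries of 1 control line, so knockdown and that line cannot be told apart. RB1 averaged 1153 ± 42.5 scaled fragments in nutlin-treated shARVCF lines, against 313.1 ± 31.5 in nutlin-treated control libraries (SD, n = 3 each; log2 difference 1.88, limma adjusted p = 6.59e-08). LIN52 averaged 322.3 ± 24.1 against 85.35 ± 9.94 (SD, n = 3 each; log2 difference 1.91, limma adjusted p = 6.14e-07). LIN9 averaged 49.25 ± 0.795 against 13.87 ± 4.27 (SD, n = 3 each; log2 difference 1.80, limma adjusted p = 3.06e-05). The shARVCF and control libraries did not overlap for any of the 9 genes, and the share of all genes without overlap was not counted. Over all genes this difference followed transcript length, with medians of -0.55, -0.16, 0.27 and 0.77 from the shortest to the longest transcripts. After removal of that trend, RB1 (1.05), LIN52 (1.65), LIN9 (1.29) and LIN54 (0.78, against 1.73 as deposited) were still called higher. RBL1 (0.57, limma adjusted p = 0.0506), RBL2 (0.23, limma adjusted p = 0.0825) and LIN37 (-0.05, limma adjusted p = 0.791) were not. With the line as a block as well, RBL1 (limma adjusted p = 0.037) and RBL2 (limma adjusted p = 0.0344) were called higher.

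RBBP4 and DYRK1A turned the other way when the trend was removed. RBBP4 averaged 2588 ± 255 scaled fragments in nutlin-treated shARVCF lines, against 2019 ± 236 in nutlin-treated control libraries (SD, n = 3 each). Its log2 difference was 0.36 as deposited (limma adjusted p = 0.0208) and -0.66 after removal (limma adjusted p = 0.000387). The deposited call was also lost with the first library series alone (0.18, limma adjusted p = 0.416) and with 1 library left out, namely nutlin-treated shARVCF 1 (0.34, limma adjusted p = 0.0554) or 2 (0.30, limma adjusted p = 0.0826), or nutlin-treated control 2 (0.29, limma adjusted p = 0.0862) or 3 (0.33, limma adjusted p = 0.0664). DYRK1A averaged 475.2 ± 65.1 against 277.5 ± 26.6 (SD, n = 3 each), with a log2 difference of 0.77 as deposited (limma adjusted p = 0.000265) and -0.51 after removal (limma adjusted p = 0.00615). Both directions therefore depend on whether the trend is counted as part of the libraries or removed. After removal 6 of the 9 were called, 4 higher and 2 lower, where 38.9% of all genes were called, 15.8% higher and 23% lower. Adding the line as a block gave 8, 6 higher and 2 lower. The share of all genes called in that fit was not counted.

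**Figure D5:**
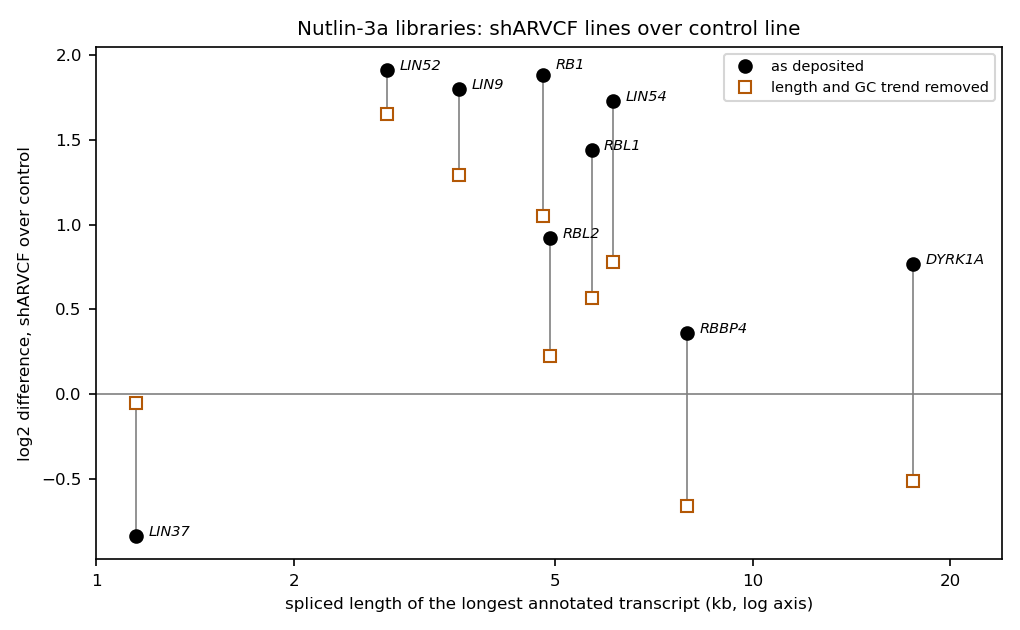
Log2 difference between shARVCF and control lines under nutlin-3a for the 9 genes against transcript length (log axis), as deposited (filled) and with the length and GC trend removed (open). LIN37, the shortest, is the only one below 0 as deposited, and RBBP4 (7943 nt) and DYRK1A (17562 nt) lie below 0 after removal.

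The drug effects were also compared directly, as the effect in the shARVCF lines less that in the control line. As deposited 8 of the 9 genes differed, 7 with a higher value in the shARVCF lines and LIN37 with a lower one, where 31.8% of all genes were called, 19.3% higher and 12.5% lower. With the length trend removed 4 differed, where 13.5% of genes were called, 5.29% higher and 8.24% lower. RB1 was 1.91 higher as deposited (limma adjusted p = 3.06e-05) and 1.16 after removal (limma adjusted p = 0.000825). LIN52 was 1.74 higher (limma adjusted p = 0.000456) and 1.54 after removal (limma adjusted p = 0.00222). LIN9 was 1.80 higher (limma adjusted p = 0.00496) and 1.35 after removal (limma adjusted p = 0.0302). RBBP4 was not called as deposited (0.33, limma adjusted p = 0.255) and was -0.66 after removal (limma adjusted p = 0.0315). These comparisons share the nutlin-treated control libraries with the preceding ones and are not independent of them.

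Without drug, none of the 9 genes was called between the shARVCF lines and the control line. Their log2 differences ran from -0.13 (RBL2) to 0.22 (LIN37), none had an unadjusted p under 0.05, and 3 of 14955 genes, 0.0201%, were called by limma in all. LIN37 had 172.1, 159.4 and 147.5 scaled fragments in untreated shARVCF lines against 137 in the untreated control. All 3 lines lay above that single library, but LIN37 was not called. How common such an order was over all genes was not counted. The 95% intervals show the size that could have been missed with 1 control library, from -0.37 to 0.30 for RB1 and from -0.71 to 0.71 for LIN9.

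The genes whose profiles lay closest to each of the 9 over the 10 libraries were found among 11931 genes by the root mean square difference of centred log2 values. LIN9 lay closest to WDHD1 and ECT2 (0.21 for both), genes of replication and of cytokinesis, and RBL1 to SOX2 (0.24) and SMC2 (0.27), a transcription factor and a condensin subunit. RB1 lay closest to HOOK3 and BMPR1A (0.11 for both) and RBL2 to ZNF268 (0.08) and IDE (0.09). LIN37 lay closest to QDPR (0.07) and COA3 (0.08), LIN52 to PSD3 (0.10), and LIN54 to ZNF92 (0.14) and CTDSPL2 (0.17). RBBP4 lay closest to NSL1 (0.06) and S100PBP (0.08), and DYRK1A to ACVR2B and SPRED2 (0.07 for both). Among the 9 themselves, DYRK1A and RBL2 (0.23) and DYRK1A and RBBP4 (0.24) lay closest, LIN52 lay 0.29 from RB1 and 0.39 from LIN54, and RBL1 lay 0.45 from LIN9. All libraries of a group share treatment and line, so these distances mostly compare group means.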

How the data were processed

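Poly(A) RNA of 10 U2OS libraries was sequenced with a stranded kit. Per the submitters' processing notes, bcl2fastq 1.8.3, HISAT2 2.1.0, hg38 and Cuffnorm 2.2.1 were used. No source used here names the annotation. The deposited values are a signal made by the authors, estimated fragments per gene scaled per library, of which 51.6% to 58.2% were whole multiples of the lowest step (tolerance 0.01). They are not counts, so limma was used in place of a count test.

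One limma 3.58.1 model (R 4.3.3) of log2(value + 1) was fitted to the 10 libraries with 4 group means (6 residual degrees of freedom), a variance trend and robust weights. Tests were two-sided and adjusted by Benjamini-Hochberg over 14955 genes, called at 0.05. Intervals are 95%. The pseudocount makes fold changes of low genes smaller than they are. The fit was tested on simulated data.

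The members and gene lists were chosen with earlier results of these data known. The named genes were all 9 members, up to 4 genes per list with the smallest adjusted p in the shARVCF lines, every gene of a list of 7 or fewer, named partners, the 2 nearest profiles per member, and ARVCF, MDM2 and CDKN1A. Not every gene the rule takes is printed, and genes outside it (PCNA, SYNC, AKTIP, CCND1, SUZ12, MTA2, SAP30, KRT8 and KRT18) were named after their values were seen.

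Of the table's symbols 24016 matched GENCODE v29 by name, 749 by another name and 1275 not at all. Spliced length and GC were read from the longest basic transcript, and their trend was removed with splines of 4 degrees of freedom (14750 genes). The labels tie each replicate number of the shARVCF groups to 1 shRNA line, and residuals of the same line across treatments correlated (r = 0.275, 0.288 and 0.327, across genes), so numbers pair those libraries.

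Alternatives were pseudocounts of 0.1 and 10, no filter or one of 50, 3 other scalings (TMM, median of ratios and upper quartile), no variance trend, library series, each library left out, the line block, and the length and GC trend. The line block combined with that trend was added after the data were seen.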

Additional observations from a re-analysis of the deposited data

Results flagged for a closer look

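The response to nutlin-3a differed between the shARVCF lines and the control line for 8 of the 9 genes, by the test of that difference itself (limma, adjusted p under 0.05 as deposited). The effect in the shARVCF lines less that in the control line, on the log2 scale, was 1.91 for RB1, 1.80 for LIN9, 1.74 for LIN52, 1.64 for LIN54, 1.30 for RBL1, 1.05 for RBL2, 0.78 for DYRK1A and -1.05 for LIN37. After the trend on transcript length and GC content was removed, RB1 (1.16), LIN52 (1.54) and LIN9 (1.35) still passed the test, and the other 5 did not. Those 5 were LIN54 (0.74, limma adjusted p = 0.0657), RBL1 (0.47, limma adjusted p = 0.451), RBL2 (0.38, limma adjusted p = 0.162), LIN37 (-0.30, limma adjusted p = 0.471) and DYRK1A (-0.45, limma adjusted p = 0.203).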

How the results depend on the processing

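Removing the length and GC trend was the setting that changed most. It took the genes called in the control line to 5, against 9 as deposited, and those called for the difference of the drug effects to 4, against 8, with or without the replicate block on line. It reversed the direction of DYRK1A in the control line (0.0336), under nutlin-3a (-0.51) and in the difference of effects (-0.45), and of RBBP4 in the control line (0.0633), under nutlin-3a (-0.66) and in the difference of effects (-0.66). The replicate block alone took the count in the shARVCF lines to 7, against 5, by RB1 and DYRK1A, and changed no other call. Combined with the trend removal it took the count under nutlin-3a to 8, against 6 with the trend removed alone. The share of all genes called with the line as a block was not counted, so these rises have no background beside them. The call of RBBP4 under nutlin-3a was also lost with library series as a term, without variance trend and robust weights, and with upper-quartile scaling. The call of RB1 in the shARVCF lines was gained with library series as a term. Without drug, where nothing was called, LIN9 changed sign with TMM (0.0012) and upper-quartile scaling (0.0062). Leaving out single libraries gave -0.0805 to 0.061 for LIN9, -0.108 to 0.0537 for RB1, -0.0629 to 0.121 for RBBP4 and -0.0564 to 0.0572 for DYRK1A in that comparison. The untreated control could be left out only of the comparisons that do not use it. The annotated length is that of the longest transcript, and few fragments of LIN9 and RBL1 limit their fold changes in treated control libraries.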

Other observations

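Over all genes, 21% rose and 21.7% fell in the shARVCF lines, which makes 42.8% called. The counts below also stand beside 57.1% called in the control line as deposited (25.1% higher and 32% lower) and 49.8% there with the length trend removed (28.7% higher and 21.1% lower). RBBP4 also belongs to chromatin complexes outside DREAM, and many genes of these were lower in the shARVCF lines. Of 24 listed subunits of NuRD, PRC2, CAF-1, SIN3 and NURF, 15 fell, 4 rose and 5 were not called in the shARVCF lines, with a median log2 fold change of -0.47, and 12 fell and 2 rose in the control line (8 and 6 with the length trend removed). The CAF-1 genes CHAF1A (-4.30) and CHAF1B (-2.93) and the PRC2 genes EZH2 (-2.56) and SUZ12 (-1.04) fell in the shARVCF lines, and CHAF1A, CHAF1B and EZH2 are also on the G1/S list above. RBBP7, the close paralogue of RBBP4, fell in the shARVCF lines (-1.11) and in the control line (-0.80), and RBBP4 was at -0.69 in the shARVCF lines. The NuRD subunit MTA2 rose by 0.69 and the SIN3 subunit SAP30 by 0.81. Of 12 corepressors that bind pocket proteins, 5 fell and 2 rose in the shARVCF lines, and 7 fell and none rose in the control line (3 fell and 3 rose with the trend removed). The methyltransferases SUV39H1 (-3.55) and DNMT1 (-2.21) fell furthest among those named.

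Of 7 genes around DYRK1A, 3 rose and 3 fell in the shARVCF lines, and 3 rose and 4 fell in the control line (3 and 1 with the trend removed). DYRK1B, the paralogue of DYRK1A, rose by 0.99 in the shARVCF lines and 1.38 in the control line, and DYRK3 by 1.19 and 1.18. DCAF7, an adaptor that binds DYRK1A, fell in the shARVCF lines (-0.46) and in the control line as deposited (-0.93), where it was -0.22 with the trend removed (limma adjusted p = 0.164). LATS2, a kinase linked to DREAM assembly, rose by 0.61 in the shARVCF lines and was -0.65 in the control line (-0.15 with the trend removed). Of 7 phosphatase subunits acting on pocket proteins, 4 fell and 1 rose in the shARVCF lines, and 3 fell and 2 rose in the control line (0 and 3 with the trend removed). PPP2CB rose by 0.54 in the shARVCF lines and 0.52 in the control line. Of 10 other genes named for binding or acting on RB1, 6 fell and 1 rose in the shARVCF lines, and 7 fell and 1 rose in the control line (4 and 3 with the trend removed). SKP2 fell in the shARVCF lines (-2.09) and in the control line (-3.32), and RBBP6 rose by 0.80 in the shARVCF lines.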
